A study of Mus musculus with 4 samples.

Results

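Open chromatin was examined around 8 mouse liver genes of aromatic amino acid breakdown, Tat, Hpd, Hgd and Fah of the tyrosine pathway and Tdo2, Kmo, Kynu and Haao of the tryptophan pathway. The members are the peaks that lie inside one of these genes or within 50 kb of either end, by the RefSeq coordinates of GRCm38 (mm10). The libraries WT 1, WT 2, PA 1 and PA 2 contributed 33, 27, 29 and 34 such peaks, out of 26280, 25941, 25683 and 29765 in their whole lists. Merged over the libraries where peaks overlapped or touched, they made 42 of 38853 regions. The windows of the 8 genes did not overlap each other. The data are ATAC-seq, an assay in which the Tn5 transposase inserts adaptors into accessible DNA, on frozen liver from FVB females, 11 weeks old and fed standard chow. WT stands for 2 wild-type livers, and PA for 2 livers whose label gives a hypomorphic Pcca-/- genotype. The growth protocol names the allele A138T. Pcca encodes the alpha subunit of propionyl-CoA carboxylase. All animals were of the same sex, age, strain and diet by their labels, and the series calls the replicates biological. Each library has 1 deposited list of peak positions with no height or score, so a call says only that a place passed an unknown threshold, and the read depth is unknown. Bulk liver cannot tell fewer hepatocytes from less accessibility per hepatocyte.

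Phenylalanine is broken down by way of tyrosine, and tyrosine is broken down in the liver to fumarate and acetoacetate. Tyrosine aminotransferase (Tat) makes hydroxyphenylpyruvate, hydroxyphenylpyruvate dioxygenase (Hpd) turns it into homogentisate, homogentisate dioxygenase (Hgd) opens the ring, and fumarylacetoacetate hydrolase (Fah) makes the last cut. Loss of FAH causes hereditary tyrosinaemia, and loss of HGD causes alkaptonuria. Tryptophan dioxygenase (Tdo2) opens the ring of tryptophan, and kynurenine monooxygenase (Kmo), kynureninase (Kynu) and hydroxyanthranilate dioxygenase (Haao) carry the product towards NAD. Tat and Tdo2 are textbook targets of glucocorticoids in hepatocytes.

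The promoters of 7 of the 8 genes matched an entry in the RefSeq promoter table of GRCm38.p6, each from 250 bases before to 50 after the start of transcription. Kynu had none. They differ in CpG content, given as the ratio of observed to expected CpG. The ratio was 0.787 at Fah and 0.487 at Kmo, and 0.389 at Haao, 0.253 at Hpd, 0.243 at Tat, 0.236 at Tdo2 and 0.162 at Hgd. Of the 7 promoters, 5 are printed here. Those left out are Kmo and Hpd, whose promoter was covered by a peak in WT 1 and PA 2 only. Fah and Tdo2 were called in all 4 libraries with the highest and a low CpG ratio, Haao stands for the end of the kynurenine branch, and Tat and Hgd each lacked a call in 1 library. The sequences run 5′ to 3′ on the strand of the gene, and the start of transcription is the 50th base from the right-hand end. Capitals mark matches on either strand to a TATA box (letters TATAAA), the CCAAT box (those letters), a GC box (letters GGGCGG) and a CEBP motif (TTNNGCAA), and Haao held none of these.
Fah: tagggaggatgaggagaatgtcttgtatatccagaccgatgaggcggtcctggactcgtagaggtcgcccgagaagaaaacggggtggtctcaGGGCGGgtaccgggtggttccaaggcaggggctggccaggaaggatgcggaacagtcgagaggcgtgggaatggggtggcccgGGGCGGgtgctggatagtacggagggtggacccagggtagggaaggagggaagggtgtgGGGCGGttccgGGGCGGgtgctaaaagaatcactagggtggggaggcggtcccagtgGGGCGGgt
Tdo2: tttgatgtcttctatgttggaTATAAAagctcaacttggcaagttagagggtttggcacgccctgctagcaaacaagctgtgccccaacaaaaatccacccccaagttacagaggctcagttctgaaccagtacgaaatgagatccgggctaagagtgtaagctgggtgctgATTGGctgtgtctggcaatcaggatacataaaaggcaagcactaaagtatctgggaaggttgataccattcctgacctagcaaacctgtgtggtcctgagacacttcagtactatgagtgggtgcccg
Haao: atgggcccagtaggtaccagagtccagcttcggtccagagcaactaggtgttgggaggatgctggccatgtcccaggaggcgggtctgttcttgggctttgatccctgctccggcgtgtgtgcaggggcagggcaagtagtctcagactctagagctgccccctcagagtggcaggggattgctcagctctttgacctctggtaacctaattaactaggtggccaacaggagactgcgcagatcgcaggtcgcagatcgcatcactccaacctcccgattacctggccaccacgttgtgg
Tat: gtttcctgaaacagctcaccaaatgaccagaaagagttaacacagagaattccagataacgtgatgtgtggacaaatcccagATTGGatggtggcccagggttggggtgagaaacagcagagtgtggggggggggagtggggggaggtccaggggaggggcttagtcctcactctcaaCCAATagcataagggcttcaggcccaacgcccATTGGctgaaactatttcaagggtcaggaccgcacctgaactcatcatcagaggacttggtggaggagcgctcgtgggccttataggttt
Hgd: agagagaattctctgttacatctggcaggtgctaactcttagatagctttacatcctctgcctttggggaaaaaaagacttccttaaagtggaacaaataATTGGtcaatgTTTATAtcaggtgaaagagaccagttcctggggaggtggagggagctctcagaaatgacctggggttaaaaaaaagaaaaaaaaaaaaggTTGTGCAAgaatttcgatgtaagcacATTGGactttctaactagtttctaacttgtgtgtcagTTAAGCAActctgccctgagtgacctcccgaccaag
They lie on the minus strand at chr7:84605893-84606192 (Fah), chr3:81975679-81975978 (Tdo2) and chr17:83846741-83847040 (Haao), and on the plus strand at chr8:109990186-109990485 (Tat) and chr16:37579903-37580202 (Hgd).

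Fah held 5 GC boxes, and Hpd was the only other member with one. A GC box was present in 35.9% of all 32619 promoters of the table. Tat had 3 CCAAT boxes, Hgd 2 and Tdo2 1, against a CCAAT box in 37.6% of all promoters. Hgd had 2 CEBP matches, at -49 and 15 bases from its start, and no other member had one (10.9% of all promoters). TATAAA was found in Tdo2 and Hgd (13.7% of all), at -229 and -139. The glucocorticoid receptor half-site TGTTCT was in Kmo and Haao (19% of all) and not in the 300-base promoters of Tat and Tdo2. FOXA (TGTTTAC), HNF4 (CAAAGTCCA), D-box (TTATGTAA) and E-box (CACGTG) letters, and the full element of the glucocorticoid receptor, were in none of the 7. A match is a match of letters in a 300-base window and says nothing of binding.

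PA 1 stood apart from the other 3 libraries at the members in where its peaks stood in its list, so values are given library by library. The list of PA 2 was the longest of the 4. As a check of the tissue, a peak lay within 1 kb of the start in all 4 libraries for 5 of 7 hepatocyte markers (Ttr, Apob, Tf, Cps1 and Hnf4a). Ttr, Tf and Cps1 had no promoter entry, so a peak near either end of the gene counted for them. The start of Alb was called in PA 1 alone and that of Apoa1 in no library. Of 31 markers of Kupffer, endothelial, stellate, bile duct, lymphoid and neutrophil cells, 2 were called in all 4 libraries (Tie1 and Reln) and 22 in none. Among all 21631 protein-coding genes, 42.8% were called in all 4 libraries and 10149 genes in none. Added up, these markers had 3 calls in each WT library, 7 in PA 1 and 5 in PA 2.

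The number of peaks around the genes was alike in both genotypes. The 8 windows together held 33 and 27 peaks in WT and 29 and 34 in PA, or 30 ± 4.24 and 31.5 ± 3.54 (SD, n = 2 each). The ranges overlapped, and the difference of 1.5 peaks was smaller than the spread in either genotype (exact permutation test over libraries, two-sided, p = 0.667, where 0.3333 is the smallest p that 2 against 2 allows). Without WT 2 or without PA 2 the difference turned to -1.5 or -1 peaks, and in the first 50% of each list to -2. It was larger, 4 peaks, when only peaks nearest to the enzyme genes were counted (17 and 13 in WT, 17 and 21 in PA), and 4.5 without WT 1 and 4 without PA 1. Kmo had 6 peaks in every library. Kynu varied most, with 3 and 1 peaks in WT and 2 and 5 in PA, and Hpd had 6 and 3 against 5 and 6. Fah had the fewest, 1 peak in 3 libraries and 2 in WT 2. Averaged over the libraries, the windows held a median of 4 peaks, and those of all 21631 protein-coding genes a median of 2.5 with quartiles of 1 and 4. Kmo was above 92.0% and Hpd above 84.0% of all genes in this count, and Fah above 27.9%. The nearest end of a protein-coding gene was that of another gene for 17 of the 42 regions, and at Fah for none.

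**Figure D1:**
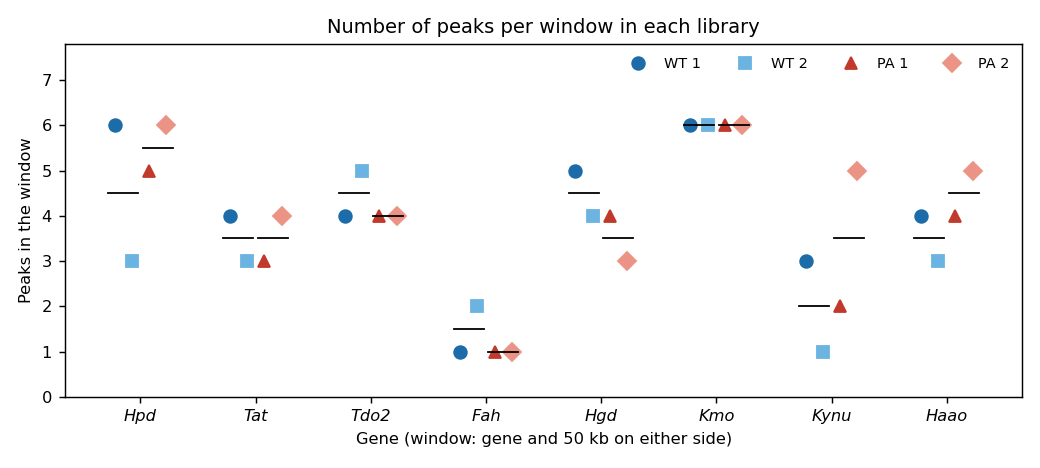
Peaks per window in each library for the 8 genes (points, 1 per library) with the mean of each genotype (black bars, n = 2); the window is the gene and 50 kb on either side, and the vertical axis is the number of peaks. Kmo has 6 in every library, and the ranges of WT and PA overlap or touch at all 8 genes.

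Of the 42 regions, 19 were called in all 4 libraries, 10 in 3, 4 in 2 and 9 in 1. The share in all 4 was 45.2% (exact Clopper-Pearson 95% interval 29.8 to 61.3, counting error of regions only), beside 47.3% of the 33215 regions within 50 kb of any protein-coding gene. The windows differed from each other in this. All 6 regions around Kmo were called in every library, and none of the 6 around Kynu. Tdo2 and Haao had 3 each, Hpd, Tat and Hgd 2 each, and Fah 1. Of the 10 regions that 1 library alone lacked, 5 lacked WT 2, 4 lacked PA 1, 1 lacked PA 2 and none lacked WT 1. Of the 33215 regions within 50 kb of any protein-coding gene, 1 library alone lacked 4324. Among these, 1874 lacked PA 1, 1081 lacked WT 1, 924 lacked WT 2 and 445 lacked PA 2. The library most often lacking was thus PA 1 in the background and WT 2 at the members, a difference that was not tested.

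A single region was restricted to each genotype, 1 PA-only (called in both PA and neither WT library) and 1 WT-only. That is 2.38% of the 42 each, beside 3.24% PA-only and 1.92% WT-only among regions within 50 kb of protein-coding genes, so the members stood near the background. The PA-only region lay inside Kynu at 43673614 to 43674085 on chromosome 2. Its place was 99.8% in PA 1 and 90.7% in PA 2, where 100% would be the last line, and no WT peak lay nearer than 48637 bp. The WT-only region of the Hgd window lay inside the neighbouring gene Gtf2e1, 49603 bp from the start of Hgd (chromosome 16, 37530139 to 37530550). Its places were 90.5% and 85.9% in WT 1 and WT 2, and no PA peak lay nearer than 9066 bp. Both thus stood past 85% of the lists that held them, a limit chosen after the data were seen. So did 26.5% of all PA-only and 15.5% of all WT-only regions in both of their libraries. Place in the list is the line number as a share of all lines. No source used here says what the order means, and it serves as a description.

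**Figure D2:**
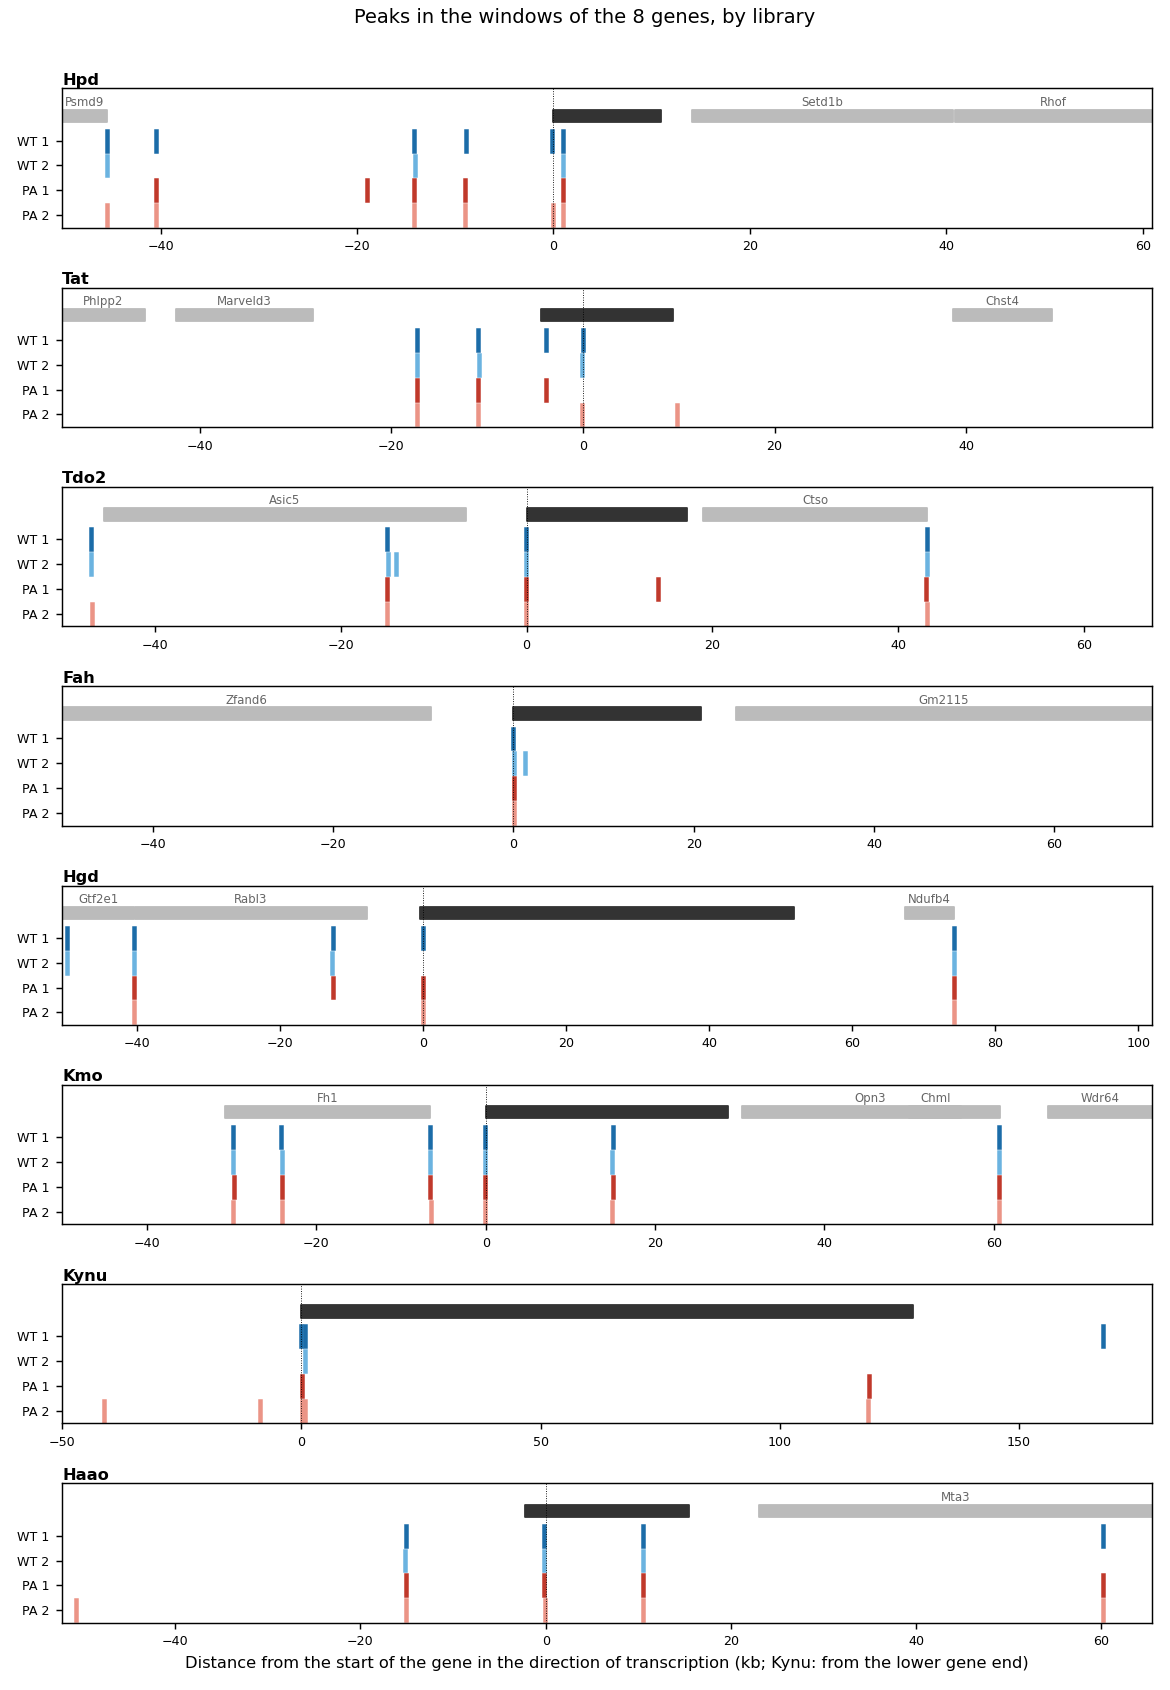
Peaks of each library (coloured bars at the peak centre, 1 row per library) by distance from the start of each gene in kb, along the direction of transcription, or from the lower gene end for Kynu; black bars are the enzyme genes and grey bars their neighbours. Kmo has the same 6 regions in every library, Tat lacks the PA 1 peak over its start, and Hgd lacks that of WT 2.

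At the start of transcription, 6 of the 8 genes had a peak within 1 kb in all 4 libraries, beside 42.8% of all protein-coding genes. Tat and Hgd had one in 3 libraries each. No start was called in both libraries of 1 genotype and neither of the other, beside 0.656% of all genes for PA alone and 0.472% for WT alone. Within 500 bp of the start the count was 4, those of Tdo2, Fah, Kmo and Haao. The 42.8% holds for 1 kb, and no share of all genes is given for 500 bp, so this count has no background beside it. Of the 5 promoters with a CpG ratio below 0.4, a limit chosen after the data were seen, Hpd, Tdo2 and Haao were called in all 4 libraries. Among all protein-coding promoters below that ratio, 8.80% were, against 63.3% of those at or above it.

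Tat (chromosome 8, 109986078 to 109999804) encodes the first enzyme of tyrosine breakdown. Its start at 109990436 lies inside the annotated span of the gene, and the region over it was 109990178 to 109990586. WT 1, WT 2 and PA 2 had this peak, at 25.9%, 18.0% and 15.5% of their lists, with centres at -49.5, -58.5 and -55.5 bp from the start, which is upstream of it. PA 1 did not, and its nearest peak was 3704 bp from the start. That peak, at 109986333 to 109986733 and 255 bp from the lower end of the gene, was shared with WT 1 and stood at 31.6% and 25.4%. The presence of a call here thus divided the libraries within each genotype. A pair of regions upstream were called in all 4 libraries, 10696 and 17121 bp from the start. The nearer stood at 29.3%, 16.7%, 24.8% and 19.7% of the lists of WT 1, WT 2, PA 1 and PA 2, and the further at 36.0%, 38.8%, 72.1% and 36.8%, with PA 1 far below the others. A peak at 110000026 to 110000425, just past the upper end of Tat, was in PA 2 alone, at 11.8% of its list.

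Hpd (chromosome 5, 123171807 to 123182723) encodes the enzyme that nitisinone inhibits in the treatment of tyrosinaemia. A region at 123181526 to 123181990, 733 bp inside the gene from its start, was called in all 4 libraries, at 26.9%, 21.2%, 42.4% and 24.6% of the lists of WT 1, WT 2, PA 1 and PA 2. A second region, over the start itself (123182583 to 123183023), was called in WT 1 and PA 2 and not in WT 2 and PA 1. It covered the whole 300-base promoter in both, and stood at 28.7% and 30.0%. The start of Hpd as such was therefore called in 1 library of each genotype. Upstream, 13917 bp from the start, a region was called in all 4 libraries at 29.0%, 34.7%, 43.2% and 26.4%. Another, 8751 bp upstream, was missing from WT 2 only, and a peak 18771 bp upstream was in PA 1 only. The remaining 2 regions lay nearest to Psmd9, a neighbour that encodes a proteasome assembly factor.

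Hgd (chromosome 16, 37579742 to 37632026) encodes the enzyme lost in alkaptonuria. The region over its start, 37579966 to 37580380, was called in WT 1, PA 1 and PA 2 at 43.0%, 49.2% and 38.0% of their lists. WT 2 had no peak nearer than 12490 bp. No other region in the window had an end of Hgd as its nearest. The starts or ends of its neighbours Gtf2e1 and Rabl3 (1 region over both) and Ndufb4 were called in all 4 libraries, higher up, at 6.78% to 14.1% and 18.3% to 24.7%. Within Hgd itself beyond the start no library had a peak.

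Fah (chromosome 7, 84585159 to 84605942) had, of all regions at the enzyme genes, the one nearest the top of the lists. The region over its start, 84605683 to 84606120, stood at 1.31%, 2.30%, 3.58% and 0.964% of the lists of WT 1, WT 2, PA 1 and PA 2. Its peaks were centred 21.5 to 59.5 bp downstream of the start, in a promoter of 64.3% GC with 19 CpG. The window held 1 further region, inside the gene at 84604465 to 84604864, in WT 2 alone and at 9.68% of its list. High single-library peaks of this kind were rare. Of the 10412 regions called in 1 library, 48 (0.461%) stood in the first 12% of their list, and the peaks at Fah and Tat are 2 of them. The limit of 12% was chosen after these peaks were seen, so that both fall inside it by construction. What accounts for them was not tested.

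Tdo2 (chromosome 3, 81958412 to 81975728) encodes the enzyme that sets the entry of tryptophan into the kynurenine pathway. The region over its start, 81975621 to 81976023, was called in all 4 libraries and covered the whole promoter in each. The 4 peaks were placed within 3 bp of each other, with centres at -95.5, -95.5, -93.5 and -92.5 bp from the start. It stood at 7.98% and 12.7% of the lists of WT 1 and WT 2, at 32.9% in PA 1 and at 8.78% in PA 2. PA 1 stood apart here, and PA 2 lay between the WT libraries. The mean place was 10.3% ± 3.31 in WT and 20.8% ± 17.0 in PA (SD, n = 2 each), a difference smaller than the spread in PA. Inside Tdo2 the only other peak was in PA 1, near the end of its list (91.1%). The other regions lay nearest to Ctso and Asic5. The one at an end of Ctso (81932442 to 81932891) was called in all 4 libraries at 45.0%, 37.0%, 34.9% and 46.0%, and one inside Asic5 (81990479 to 81990916) at 28.2%, 32.2%, 30.7% and 21.0%. PA 1 was nearest the top of its list at the first and within the range of the others at the second.

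Kmo (chromosome 1, 175632193 to 175660853) encodes the flavoprotein that hydroxylates kynurenine. The region over its start, 175631913 to 175632333, stood at 32.6%, 38.7%, 56.4% and 32.7% of the lists of WT 1, WT 2, PA 1 and PA 2. A region inside the gene, 14733 bp from the start, stood at 42.5%, 34.0%, 50.4% and 24.9%. In both, PA 1 was the lowest. The other 4 regions belonged to the neighbours Fh1, which encodes fumarase, the enzyme that uses the fumarate of tyrosine breakdown, and Opn3. The one at an end of Fh1, 6303 bp from the start of Kmo, stood at 1.30%, 0.829%, 1.25% and 1.08%, and that at an end of Opn3 at 0.107%, 0.305%, 0.113% and 0.0806%. At these PA 1 lay within the range of the other libraries. At 175602204 to 175602666, 826 bp from the other end of Fh1, the places were 36.1%, 38.0%, 51.9% and 27.5%, with PA 1 lowest, 18.1 points below the mean of the other 3. At 175607862 to 175608299, inside Fh1, they were 63.3%, 62.4%, 51.3% and 74.7%, with PA 1 nearest the top.

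Kynu (chromosome 2, 43555258 to 43683048) is the longest of the genes and had no neighbour within its window. With no entry in the promoter table, its ends were taken in place of a start. The lower end held a pair of neighbouring regions. The first, over the end at 43555042 to 43555481, was called in WT 1, PA 1 and PA 2 at 47.8%, 49.3% and 39.4%. The second, 642 bp inside the gene at 43555900 to 43556300, was called in WT 1, WT 2 and PA 2 at 49.99%, 38.5% and 34.1%. Each library thus had a call within 1 kb of that end, WT 2 and PA 1 through different regions. Away from it the peaks were few, and all stood past 86% of their lists: 2 in PA 2 alone, 1 in WT 1 alone and the PA-only region named before.

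Haao (chromosome 17, 83831348 to 83848981) acts last among the 4 tryptophan enzymes, and its product can close to quinolinate, the precursor of NAD. The region over its start at 83846790 (83846688 to 83847117) stood at 13.5%, 13.3%, 25.7% and 6.80% of the lists of WT 1, WT 2, PA 1 and PA 2. A region inside the gene, 10323 bp from the start at 83836049 to 83836467, stood higher still, at 5.33%, 6.57%, 17.4% and 4.40%. In both, PA 1 was lowest, outside the range of the other 3. A region 14883 bp upstream (83861673 to 83862180) stood at 11.0%, 6.68%, 12.3% and 11.7%. There PA 1 was within 1 point of PA 2.

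At the enzyme genes PA 1 mostly stood lower in its list than the other libraries did in theirs. Of the 10 regions called in all 4 libraries whose nearest gene end was that of an enzyme gene, PA 1 stood furthest down its list of the 4 libraries in 9, the exception being the region 10696 bp upstream of Tat. Of the 9 such regions nearest to another gene in the same windows it did so in 2, 1 nearest to Marveld3 upstream of Tat and 1 nearest to Fh1. Over all 17581 regions called in all 4 libraries it did so in 29.5%. The PA 1 place minus the mean of the other 3 had a median of 13.8 points at the first group and -0.0510 points at the second, and -0.000868 points over all regions (quartiles -6.07 and 7.07). The other libraries had medians of -2.12 (WT 1), -3.17 (WT 2) and -7.30 points (PA 2) at the first group. Over all regions theirs were 1.31, 0.458 and -2.44 points. Their comparison includes PA 1, so a PA 1 peak further down its list makes these values more negative by construction. Tdo2 lay furthest from its other libraries among the starts, by 23.0 points, which exceeded 95.7% of all regions called in all 4. Kmo followed with 21.7, then Hpd with 18.2, Haao with 14.5 and Fah with 2.05 points. PA 2 did not move with PA 1, so the lower places were seen in 1 PA library and not in both. The pattern was noticed after the values were seen, and no test was run.

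**Figure D3:**
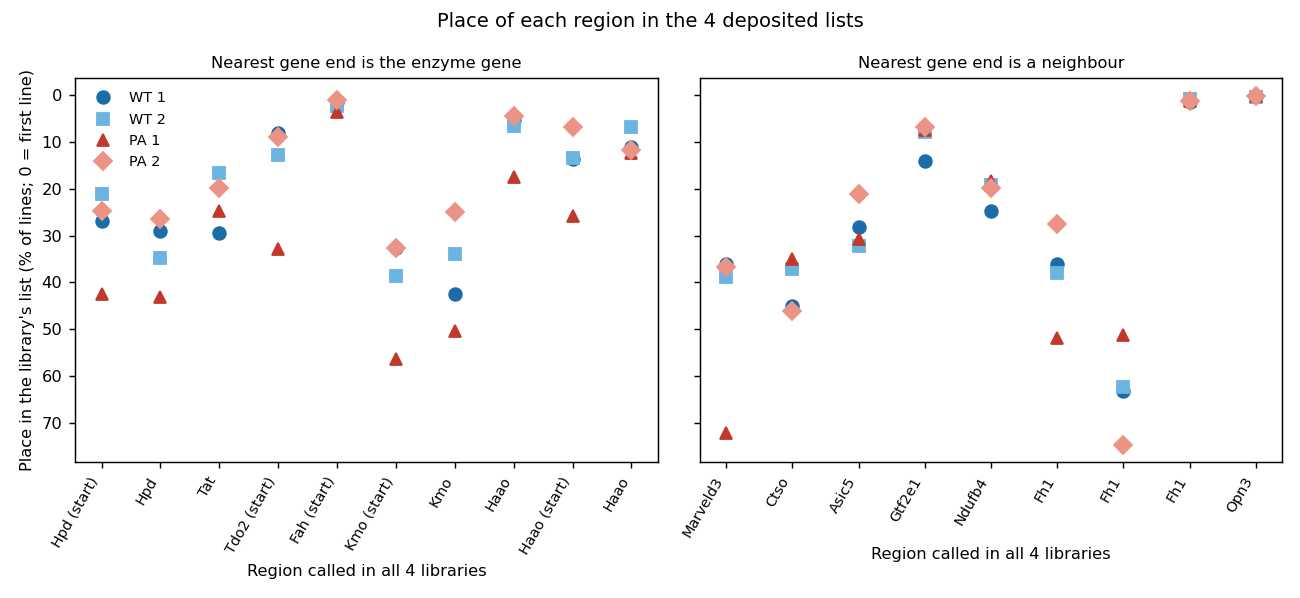
Place of each region called in all 4 libraries in the list of each library, in percent of lines with the first line at the top, for the 10 regions nearest to an enzyme gene (left) and the 9 nearest to a neighbouring gene (right). PA 1 (triangles) is lowest in 9 of 10 on the left and in 2 of 9 on the right.

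The same comparison at gene starts, by the peak nearest each start, put PA 1 lowest in 6 of the 6 member genes with a call in all 4 libraries. At Tdo2, Fah, Kmo and Haao these were the peaks already counted above, and at Hpd those of WT 2 and PA 1 were. This count is thus largely a repeat of the one above. Over all genes with such a call it was lowest in 17.4%. Among starts with a CpG ratio below 0.4 it was lowest in 32.3% of 719. At Hpd and Kynu the nearest peak was not the same region in every library. For Hpd, WT 2 and PA 1 gave the region 733 bp inside the gene (21.2% and 42.4%). WT 1 and PA 2 gave that over the start (28.7% and 30.0%). For Kynu, taken at its gene ends, WT 2 gave another region, and PA 1 stood at 49.3% against 47.8% in WT 1. Of 7 hepatocyte markers, the 5 called in all 4 libraries showed the same placing, with PA 1 lowest in each. These were Apob and Hnf4a at their starts, and Ttr, Tf and Cps1 at gene ends. Alb went the other way, called in PA 1 alone at 67.5%, and Apoa1 was called in no library. At Tf PA 1 stood at 14.8%, close to WT 1 at 14.4%. Cps1 stood at 42.0%, 45.4%, 69.8% and 32.4%. The 2 starts of other cell types that were called in all 4 libraries had PA 1 lowest in 1. Markers of other cell types had 7 calls in PA 1 against 3 to 5 in the other libraries, 3 of these 7 shared with no other library at Timd4, Lyve1 and S100a8, all past 83% of the list. Their part in the places of the enzyme genes was not tested, nor was that of read depth or background.

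Of a list of 15 other genes of these pathways, 10 (66.7%) had a start called in all 4 libraries, beside 42.8% of all protein-coding genes. They were Pcbd1, Qdpr, Gstz1, Aldh8a1, Qprt, Aadat, Kyat3, Got1, Got2 and Gcdh, and Kyat1 lacked WT 2 only. PA 1 was lowest in 3 of the 10, beside the 17.4% of all starts named above. Gstz1, maleylacetoacetate isomerase, the step between Hgd and Fah, was at 28.6%, 20.4%, 46.9% and 16.6%, with PA 1 lowest as at the members. Qdpr, which regenerates tetrahydrobiopterin, stood near the top in every list, at 0.285% and 0.729% in WT 1 and WT 2, 0.308% in PA 1 and 0.225% in PA 2. Starts of Ido1, Ido2, Afmid and Acmsd were called in no library. Ido1 and Ido2, taken at their gene ends, are the other tryptophan dioxygenases, Afmid hydrolyses the product of Tdo2, and Acmsd diverts the product of Haao away from NAD. The nearest peaks were 10592 to 10616 bp away at Ido1, 2873 to 2897 at Ido2, 15119 to 15162 at Afmid and 2982 to 3051 at Acmsd. These distances were nearly the same in every library. Those at Ido1 and Ido2 were to the same peak, which lay inside Ido2. The 5 genes of NAD synthesis were called in all 4, with PA 1 lowest at 1. Of 6 transporters of amino acids, 3 (50%) were called in all 4, beside the same 42.8%.

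**Figure D4:**
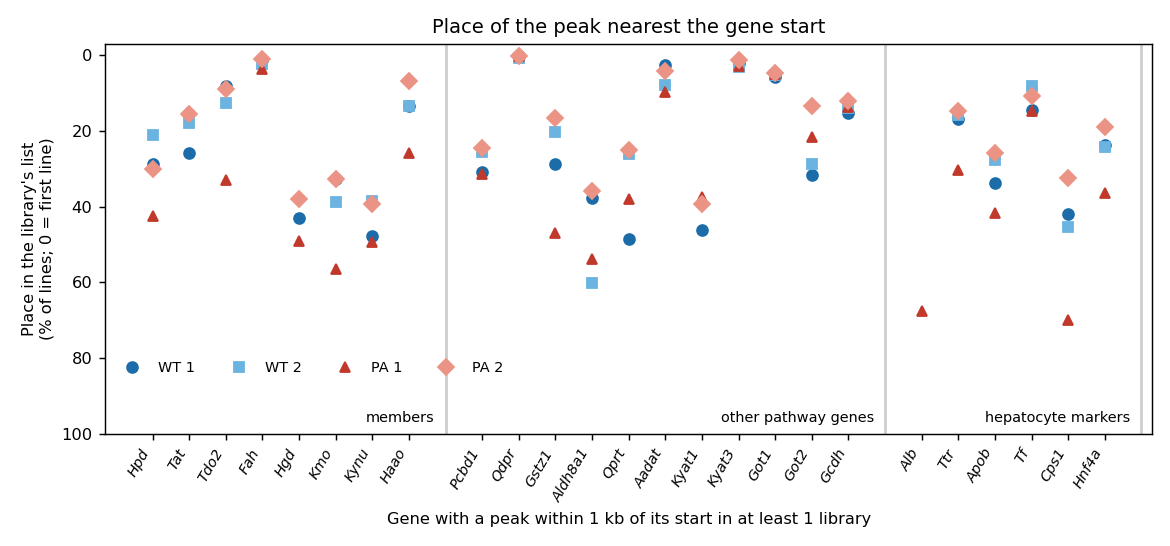
Place in the list, in percent of lines with the first line at the top, of the peak nearest the start of each member gene, other pathway gene and hepatocyte marker that had a start call in at least 1 library; each point is 1 library. PA 1 (triangles) is lowest at the 6 members called in all 4 libraries and at the 5 hepatocyte markers so called, and at 3 of 10 other pathway genes. At Hpd and Kynu the nearest peak is not the same region in every library. Kynu, Ttr, Tf and Cps1 are taken at their gene ends.

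Among 10 regulators of liver genes, 4 had a start called in all 4 libraries, Hnf4a, Cebpa, Foxa3 and Ppara. That is 40%, near the 42.8% of all protein-coding genes. Onecut1, which encodes the hepatocyte factor HNF6 (chromosome 9, 74861921 to 74889648), was called in both WT libraries at 30.4% and 19.4% of their lists and in neither PA library. The nearest PA peaks were 4785 and 4724 bp from its start. It was the only one of the 10 with a call restricted to a genotype, and such calls made up 0.472% of all genes. Cebpb, a basic leucine zipper factor of the CEBP family, was called at its start in WT 1, WT 2 and PA 2 at 7.91%, 4.47% and 5.75%. In PA 1 the nearest peak was 27021 bp away, the same division of libraries as at the start of Tat. Starts of Foxa1 and Foxa2 were called in no library, and Nr3c1, the glucocorticoid receptor, taken at its gene ends, was called in PA 1 only, at 79.9%.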

How the data were processed

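ATAC-seq peaks of 4 mouse liver libraries were used, 1 deposited list per library with chromosome, start and end. The deposited values are positions in base pairs, with no score, and nearly all peaks are 400 bp long. Per the submitters' processing notes, the authors used GRCm38 (mm10) with HOMER 4.10, bedtools 2.31.0, Bowtie2 2.5.1, cutadapt 3.5, R 4.1.2 and SAMtools 1.17. No source used here names the caller and its threshold, how reads were filtered or any transposase shift of read ends. These decide which windows pass, as do read depth and background, so a missing call is not closed chromatin.

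Peaks were merged over libraries where they overlapped or touched, and 1 bp of a peak counted as a call (Python 3.11.15, SciPy 1.17.1). Groups came from sample titles. Gene spans and starts came from RefSeq GRCm38.p6. Where a gene had no promoter entry, both its ends were used. The window was 50 kb and the distance to a start 1 kb. All 8 genes and their regions are accounted for. Regions are given with their places at starts, when called in all 4 libraries and when restricted to a genotype. Genes of the pathway, transporter, NAD and regulator lists are named where their start call is restricted to a genotype or missing everywhere. Some more genes were chosen after their values were seen, and of the cell type markers only some are named. Some items of the lists are not reported here. The members and lists were chosen with earlier results of these data known. Merging and calling were tested on simulated data. Alternatives changed the window, the gene assignment, the list length, the overlap, the start distance and the libraries. Place in the list was an addition after the data were seen.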

Additional observations from a re-analysis of the deposited data

How the results depend on the processing

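The difference in peaks between PA and WT, 1.5, ranged from -2 in the first 50% of each list to 4 with peaks nearest to the enzyme genes, and from -1.5 to 4.5 with 1 library left out. The 4 exceeded the spread of 2.83 (SD, n = 2) in each genotype under that setting, and the 4.5 without WT 1 set 27 peaks in WT 2 against 29 and 34 in PA. The share of regions called in all libraries ranged from 40% to 53.8%, and from 46.3% to 60% with 1 library left out. It lay inside its interval each time. The number of starts called in all libraries was 4 within 500 bp, 5 in the first 50% of each list, 6 in the other settings, and 6 to 7 with 1 library left out. The 2 regions restricted to a genotype became 1 (PA-only) with windows of 10 kb, with gene bodies only and with regions nearest to the enzyme genes and 0 in the first 50% of each list. They became 3 to 9 with 1 library left out, which loosens the condition by construction. With places taken as ranks among the 17581 regions called in all 4 libraries, PA 1 was lowest in 10 of 19 member regions instead of 11. Among the 10 regions nearest to an enzyme gene it was then lowest in 8 instead of 9. No paired analysis was possible because the values are calls per library, to which no model with a replicate term was fitted. With 2 libraries of each genotype and unknown depth, a difference in calls cannot be told apart from one in depth.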
